A study of Rattus norvegicus with 372 samples.

Results

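Sulfasalazine at 4 µM was the lower of its 2 concentrations in a screen of chemicals on primary rat hepatocytes, and the question here is which genes differed between these wells and vehicle wells in the hepatocytes of both rats. The wells were chosen by their labels alone, as those labelled Sulfasalazine with a dose of 4, which gave 3 wells in each of 2 batches. Lysate of each well was measured by TempO-Seq, in which neighbouring detector oligos are joined on their transcript and the joined pairs are counted, with a whole-transcriptome (WT) and a smaller surrogate (ST) set of probes. The 4 µM wells therefore make up 12 of the 372 libraries, and 6 of the 186 WT libraries, on which the results rest unless ST is named.

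Each batch held hepatocytes of 1 male Wistar rat, kept between layers of collagen and treated for 24 h. Vehicle wells received medium with 0.5% DMSO, which all treated wells also contained, and all wells shared the insulin, dexamethasone and epidermal growth factor of the medium. There were 3 WT vehicle wells in batch 1 and 6 in batch 2. The wells of a batch are replicates of 1 rat's cells, so the p-values measure the spread between wells, and the 2 batches are the only separate animals. The other groups used were sulfasalazine 100 µM, ketoconazole 0.6 µM, WY14643 8 µM, indomethacin 12 and 300 µM, and medium without DMSO, each in both batches.

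The position of the wells bears on every comparison. All wells of sulfasalazine stood on plate 5 in batch 1 and plate 3 in batch 2, in 1 row in which the 4 µM wells alternated with the 100 µM wells. In batch 1 all vehicle wells were on plate 4, so plate and treatment cannot be told apart there, and in batch 2, 3 of the 6 vehicle wells were on the plate of sulfasalazine. Between the vehicle wells on plate 3 and those on plate 2, edgeR called 0 of 10191 genes, and 1430 had an unadjusted p under 0.05. For this reason the 4 µM wells were also compared with ketoconazole 0.6 µM, the low concentration of another drug, whose wells shared their plate in both batches. The 4 µM and vehicle wells held 4.19 to 8.27 M WT reads (median 6.66 M) and 0.869 to 1.95 M ST reads (median 1.37 M).

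The label of hepatocytes was checked against marker genes. Of 34 listed genes of hepatocyte identity, such as secreted plasma proteins, 30 were in the table and 29 passed the filter on low counts, with a summed level of 62660 to 79770 CPM (read counts scaled to a common library size) in the 4 µM wells of batch 1 and 65570 to 71810 in those of batch 2. Markers of other liver cells were lower but present. Over all 4 µM and vehicle wells, those of stellate cells and fibroblasts summed to 353 to 720.0 CPM, those of biliary cells to 143.5 to 239 CPM, those of Kupffer cells and leukocytes to 109 to 236 CPM and those of endothelial cells to 5.55 to 13.1 CPM. In a bulk lysate, fewer cells of a type and less RNA per cell cannot be told apart.

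As background, sulfasalazine joins 5-aminosalicylic acid to sulfapyridine through an azo bond and is given for inflammatory bowel disease and rheumatoid arthritis. It is known to inhibit the cystine transporter Slc7a11 and the activation of NF-κB. Peroxisome proliferator-activated receptor alpha (PPARα) is a nuclear receptor for fatty acids and for drugs such as WY14643, which activates it. With its partner RXR it binds direct repeats of a hexamer spaced by a single base, and in rat liver it raises the genes that take up, activate and oxidise fatty acids in mitochondria, peroxisomes and the endoplasmic reticulum.

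The highest rises shared by both rats were those of Cyp4a1, Cyp4a2 and Ehhadh, genes of fatty acid oxidation. With a false discovery rate of 0.05, 108 probes were called in both batches with the same sign, of which 85 were higher and 23 lower at 4 µM than with vehicle. The 108 probes are 1.01% of the 10689 tested (0.795% higher and 0.215% lower), and 0 probes were called with opposite signs. In batch 1, 218 probes were called (2.04%), 163 higher (1.52%) and 55 lower (0.515%). In batch 2, 1193 were called (11.2%), 640 higher (5.99%) and 553 lower (5.17%), and the cause of the larger number was not tested. The 108 probes are 49.5% of the calls of batch 1 and 9.05% of those of batch 2. Called or not, 7819 probes (73.1%) had the same sign in both batches.

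The 85 higher probes belong to 81 genes. Their log2 fold change (L2FC), averaged over the batches, ran from 0.28 to 4.87 with a median of 0.79, and it was under 1 for 59 of them. The 23 lower probes each stand for another gene and ran from -1.16 to -0.40 (median -0.63), under 1 in size for 22 of them. The 4 µM wells did not overlap the vehicle wells for 106 of the 108 probes in batch 1 and 94 in batch 2, which the choice of probes called in these wells all but fixes. Of all probes tested 20.7% and 15.5% were apart in this way. Leaving out 1 well at a time gave 51 to 133 probes called in both batches.

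**Figure D1:**
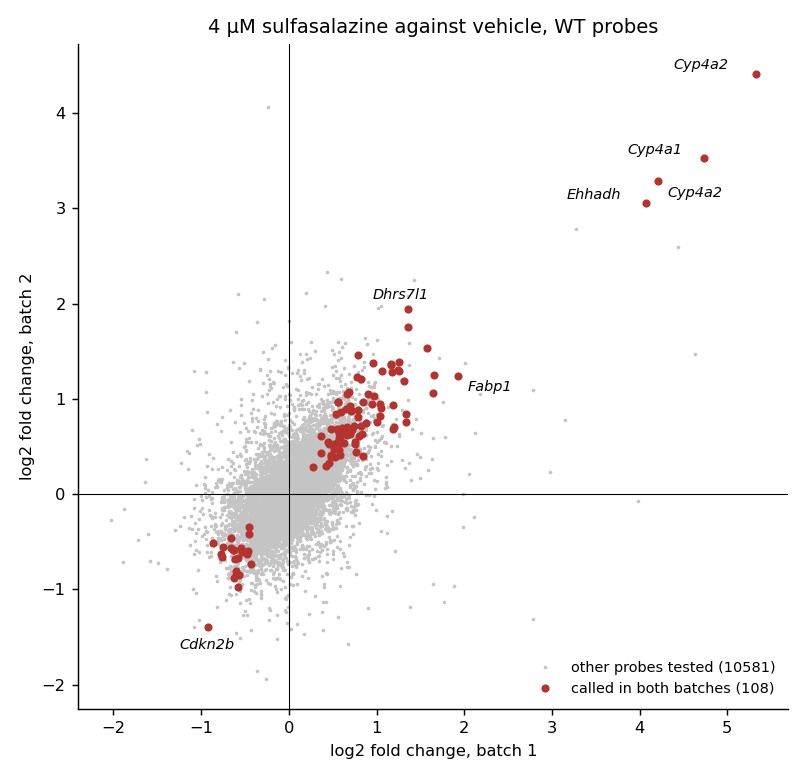
L2FC of sulfasalazine 4 µM against vehicle in batch 1 (horizontal axis) and batch 2 (vertical axis) for the WT probes tested, each point a probe, with the 108 probes called in both batches coloured. The coloured points have the same sign on both axes, and the probes of Cyp4a1, Cyp4a2 and Ehhadh lie farthest to the upper right.

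When counts were summed per gene and both batches fitted together with batch as a term, 1772 of 10191 genes were called (17.4%), 961 higher (9.43%) and 811 lower (7.96%). Only 91 of them had an L2FC of at least 1 in size, and the median L2FC of all genes was 0.005. Of the 81 genes higher in both batches 79 were called higher in this fit, and all 23 lower genes were called lower. The genes were chosen on the same wells, which all but fixes these counts. The exceptions were Eci2 (L2FC 0.13, adjusted p = 0.224) and Ugt2b15 (L2FC 0.24, adjusted p = 0.211). The called probe had an L2FC of 0.485 and 0.682 in batches 1 and 2 for Eci2. For Ugt2b15 it had 0.802 and 0.615, whereas this fit adds the counts of all probes with 1 symbol. The L2FC and adjusted p-values given below are from this fit by edgeR's quasi-likelihood test with Benjamini-Hochberg adjustment, with standard errors (SE), unless another comparison is named. Leaving out 1 well at a time moved the count of 1772 to between 780, without the second 4 µM well of batch 2, and 2134.

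The largest rises were those of the Cyp4a genes, which encode the cytochromes P450 that hydroxylate fatty acids at the omega end. Cyp4a1 was at 45.4, 43.3 and 42.0 CPM in the 4 µM wells of batch 1 and at 1.08, 1.61 and 2.39 CPM in the vehicle wells. In batch 2 the 4 µM wells had 12.3, 20.6 and 26.3 CPM and the vehicle wells 0.832 to 2.32 CPM (median 1.64). Every 4 µM well lay above every vehicle well of its batch, and the mean was 25.7 times that of vehicle in batch 1 and 12.0 times in batch 2 (L2FC 4.09, SE 0.39, adjusted p = 3.75e-17).

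Cyp4a2, a near relative of Cyp4a1, had 215, 209 and 246 CPM in the 4 µM wells of batch 1 against 9.97, 10.5 and 12.3 CPM with vehicle. Its 4 µM wells in batch 2 held 83.4, 118.5 and 139 CPM, beside 7.96 to 13.2 CPM (median 9.91) with vehicle. The groups did not overlap, with a mean that was 20.4 times that of vehicle in batch 1 and 11.04 times in batch 2 (L2FC 3.84, SE 0.30, adjusted p = 2.66e-22). Because the 2 genes are close in sequence, counts of their probes may be shared in part, and how much was not tested.

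Ehhadh, the bifunctional hydratase and dehydrogenase of peroxisomal beta-oxidation, rose from 3.00, 1.96 and 0.853 CPM with vehicle to 34.4, 31.6 and 37.5 CPM in batch 1. In batch 2 it was at 9.10, 14.6 and 17.6 CPM against 0.713 to 2.46 CPM (median 1.59). Again no wells overlapped, and the L2FC was 3.56 (SE 0.28, adjusted p = 3.33e-22). For these 3 genes each 4 µM well of batch 1 lay above each of batch 2, and the first 4 µM well of batch 2 was the lowest of all 6.

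Fabp1 encodes the fatty acid binding protein of the liver cytosol. It had 184, 161 and 205 CPM in the 4 µM wells of batch 1 and 44.3, 61.8 and 38.7 CPM in the vehicle wells. In batch 2 the 4 µM wells lay close together, at 48.5, 50.5 and 53.6 CPM, and the vehicle wells at 17.4 to 24.5 CPM (median 21.6). The groups did not overlap within a batch, but the vehicle wells of batch 1 were about as high as the 4 µM wells of batch 2 (L2FC 1.68, SE 0.26, adjusted p = 4.33e-07).

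**Figure D2:**
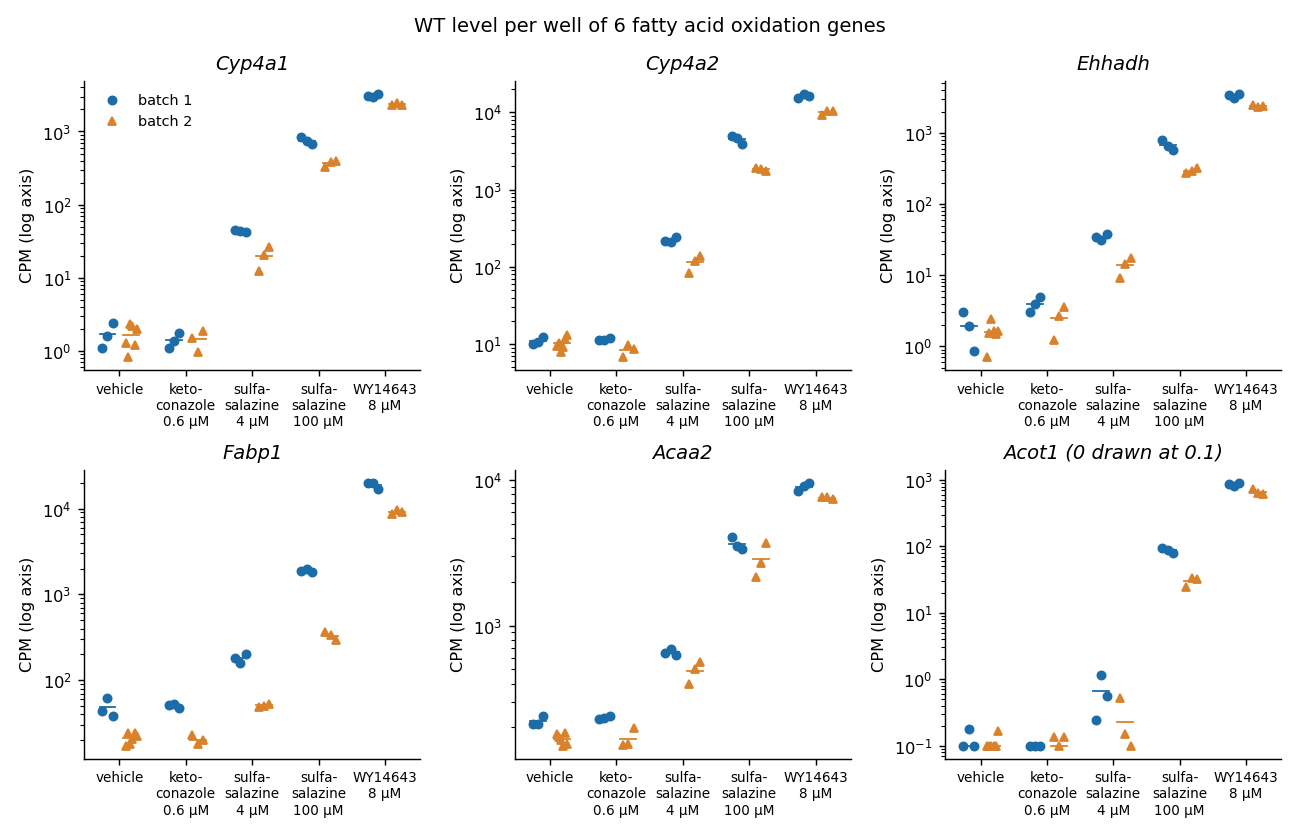
WT level in CPM (vertical log axes) of Cyp4a1, Cyp4a2, Ehhadh, Fabp1, Acaa2 and Acot1 in every well of 5 groups (horizontal axes), each point a well, with circles for batch 1, triangles for batch 2 and a bar at the mean of a group and batch; values of 0 are drawn at 0.1 for Acot1. In the panels of the first 5 genes the 4 µM wells lie above all vehicle and ketoconazole wells of their batch and below all 100 µM wells, and the WY14643 wells lie highest.

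To show the sequence in front of 3 of these genes, their promoters are given here over the 250 bases before the annotated start, from RefSeq on rat build GRCr8. A script searched them on both strands for AGGNCANAGGNCA, a short form of the direct repeat that PPARα and RXR bind, and a match is in capitals. Fabp1 lies at chr4:104749090-104749339 on the plus strand, Cyp4a2 at chr5:134170909-134171158 on the minus strand and Ehhadh at chr11:92746159-92746408 on the plus strand. The table holds no promoter of Cyp4a1.
Fabp1: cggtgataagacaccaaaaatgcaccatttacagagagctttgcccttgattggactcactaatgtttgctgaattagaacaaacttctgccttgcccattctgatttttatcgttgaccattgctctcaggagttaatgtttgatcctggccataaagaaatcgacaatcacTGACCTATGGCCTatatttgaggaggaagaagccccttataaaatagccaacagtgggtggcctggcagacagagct
Cyp4a2: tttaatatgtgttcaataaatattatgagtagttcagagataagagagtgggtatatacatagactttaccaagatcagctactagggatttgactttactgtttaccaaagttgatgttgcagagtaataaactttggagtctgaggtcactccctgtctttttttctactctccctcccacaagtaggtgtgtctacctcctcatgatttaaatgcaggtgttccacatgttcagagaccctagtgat
Ehhadh: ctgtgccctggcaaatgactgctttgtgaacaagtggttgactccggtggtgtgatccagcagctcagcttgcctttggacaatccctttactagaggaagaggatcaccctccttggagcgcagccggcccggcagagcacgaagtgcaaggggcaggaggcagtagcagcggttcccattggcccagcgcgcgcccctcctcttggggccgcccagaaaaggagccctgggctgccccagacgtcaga

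The match of Fabp1 reads as the reverse complement of the motif and lies 77 to 65 bases before the start, at 104749263 to 104749275. The motif was in 123 of 33469 promoters of this length (0.368%) and in 2 of the 56 promoters found for the 81 genes higher in both batches (3.57%), those of Fabp1 and Cyp2d1. It was in 0 of the 19 promoters found for the 23 lower genes. The strict letters miss other versions of the repeat and sites farther from the start, so a promoter without a match, such as those of Cyp4a2 and Ehhadh, says only that these letters are not in this window.

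A list of 45 textbook target genes of PPARα was counted as a whole. Of these, 39 were in the table and 35 passed the filter, and 17 of the 35 (48.6%) were called higher at 4 µM and 0 lower, against 9.43% higher and 7.96% lower over all genes. The median L2FC of the 35 was 0.38, against 0.005 over all genes. In batch 1 alone 10 were called higher and 0 lower (0.932% and 0.363% of all genes), and in batch 2 alone 17 higher (7.06% of all genes) and 1 lower (5.02% of all genes), namely Fgf21, a hormone of fasting, with an L2FC of -0.59 there and of -0.06 in batch 1. Across the alternative analyses and with 1 well left out at a time the count of higher genes lay between 16 and 21. Where more than the leading genes of a list are named below, they were picked with their values known.

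Some enzymes of mitochondrial beta-oxidation were also called higher. Acaa2, the mitochondrial thiolase, was at 649.5, 691.5 and 626 CPM in the 4 µM wells of batch 1 and at 212, 212 and 240 CPM with vehicle. In batch 2 it was at 396, 506 and 566 CPM against 149.9 to 183.5 CPM (median 167), so no wells overlapped (L2FC 1.54, SE 0.16, adjusted p = 2.57e-15). Acaa2 was not on the list of 45 genes and is named as a probe with a high mean L2FC.

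Decr1, the reductase that lets the mitochondrion oxidise unsaturated fatty acids, had 313, 291 and 368 CPM at 4 µM against 148.5, 139 and 149.7 CPM in batch 1. The batch 2 wells held 372, 396 and 399 CPM against 136 to 170.5 CPM (median 146). The L2FC was 1.15 in batch 1 and 1.38 in batch 2, a difference of 0.22 (SE 0.17) that was not called (adjusted p = 0.998), and it was called in each (1.26 in both, SE 0.12, adjusted p = 2.28e-17). Ech1, an isomerase on the same route, had an L2FC of 1.03 (adjusted p = 4.32e-07) and Eci1, another isomerase, one of 0.52 (adjusted p = 0.0123).

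Of the enzymes of the oxidation spiral itself, some were called and some were not. Hadha, a subunit of the trifunctional protein, was at 229, 214 and 247 CPM against 159, 154.5 and 152 CPM in batch 1 and at 212, 215 and 225 CPM against 134 to 152 CPM (median 142) in batch 2. The groups did not overlap although the L2FC was only 0.58 (SE 0.09, adjusted p = 1.16e-07). The acyl-CoA dehydrogenases Acadm and Acadvl each had an L2FC of 0.49, with adjusted p = 0.000652 and 0.000299. Hadhb, the partner subunit of Hadha, was not called, with an L2FC of 0.07 (adjusted p = 0.699), and its wells overlapped vehicle in both batches. The dehydrogenase Acadl (L2FC 0.12, adjusted p = 0.219) and the hydratase Echs1 (0.13, adjusted p = 0.426) were not called either.

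Other genes of the peroxisome on the list had smaller WT L2FC than Ehhadh, a difference that was not tested. The peroxisomal thiolase Acaa1a had an L2FC of 0.38 (adjusted p = 0.00625), with wells that overlapped in batch 1 and were apart in batch 2, but in ST its L2FC was 1.73 (adjusted p = 1.94e-16). Pex11a, which drives peroxisome division, was low, at 1.56 to 2.94 CPM at 4 µM against 1.36 to 2.04 CPM with vehicle in batch 1 and at 5.54 to 6.19 against 1.88 to 3.30 CPM in batch 2. Its wells overlapped in batch 1 only (L2FC 0.97, adjusted p = 0.00165).

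Genes around the pathway that were not on the list but were called in both batches included other enzymes of the peroxisome. Cat, the catalase that breaks down the hydrogen peroxide of peroxisomal oxidation, was at 1020, 989 and 1029 CPM against 507, 544 and 535 CPM in batch 1 and at 754, 905 and 972 CPM against 394 to 508 CPM in batch 2 (L2FC 0.97). Phyh, which starts the alpha-oxidation of phytanic acid, had an L2FC of 1.01 (adjusted p = 1.2e-09), and Ephx2, the soluble epoxide hydrolase, one of 1.23 (adjusted p = 1.13e-09). In each of the 3 genes the 4 µM wells lay above vehicle in both batches.

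Among genes of fatty acid entry and storage, Acsl1, which joins fatty acids to coenzyme A, rose in both batches. It had 406, 369.8 and 469 CPM against 137, 131 and 130.5 CPM in batch 1 and 255, 312 and 310 CPM against 126 to 149 CPM in batch 2 (L2FC 1.29, SE 0.16, adjusted p = 3.78e-10). Cpt1b, the muscle form of the carnitine transferase, was low but apart, at 7.65, 8.96 and 8.67 CPM against 5.05, 4.11 and 3.75 CPM in batch 1 and at 6.46, 8.67 and 5.96 CPM against 1.16 to 3.62 CPM in batch 2 (L2FC 1.22, adjusted p = 5.13e-05). Cpt1a, the liver form, had an L2FC of 0.56 that was not called (adjusted p = 0.0904).

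Of the other list members, the pantetheinase Vnn1 rose with an L2FC of 0.97 (adjusted p = 3.07e-08), Acot3, a peroxisomal thioesterase, with 0.74 (adjusted p = 0.00721), and Plin2, a coat protein of lipid droplets, with 0.34 (adjusted p = 0.011). In ST Acot3 was not called (L2FC 0.45, adjusted p = 0.165), whereas Vnn1 (0.82, adjusted p = 5.98e-05) and Plin2 (0.43, adjusted p = 0.00214) were. Acot1, the cytosolic thioesterase, had at most 1 count in every vehicle well and is given in counts. It had 1 to 6 counts in the 4 µM wells of batch 1, 0 to 4 in those of batch 2 and 544 to 587 in the 100 µM wells of batch 1. The gene was called higher at 4 µM (adjusted p = 0.0144), but no fold is given at these counts.

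The same genes were read at 100 µM in the neighbouring wells, in comparisons that share the 4 µM wells with those above. Of the 35 PPARα targets, 34 were called higher at 100 than at 4 µM and 0 lower (7.78% and 5.43% of all genes), with a median L2FC of 1.65, and 34 were called higher at 100 µM than with vehicle (21.7% of all genes). Cyp4a1 was at 838, 741 and 681 CPM at 100 µM in batch 1 and at 325, 381 and 398 CPM in batch 2. The difference from 4 µM was an L2FC of 4.16 (adjusted p = 3.84e-25). With the PPARα agonist WY14643 at 8 µM it reached 2945 to 3237 CPM in batch 1 and 2321 to 2460 CPM in batch 2.

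Over the 17 called targets, the rise of mean CPM at 4 µM was between 0.686 and 21.8% of that at 100 µM in batch 1 (median 6.88%) and between 0.663 and 32.7% in batch 2 (median 14.3%). For Cyp4a2, which reached 3877 to 4857 CPM at 100 µM in batch 1 and 1751 to 1925 CPM in batch 2, it was 4.79 and 5.65%. Both lowest values are those of Acot1, which had 6 counts or fewer in each 4 µM well. Without it the shares of 16 genes ran from 3.96 to 21.8% (median 7.11%) in batch 1 and from 4.16 to 32.7% (median 14.4%) in batch 2. The part of the alternating position of the 4 and 100 µM wells was not tested.

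Indomethacin gave values in the same layout, since its 12 µM wells alternated with its 300 µM wells in the adjacent row of the same plates. Cyp4a1 was at 413 to 521 CPM with indomethacin 300 µM and at 3.52 to 4.81 CPM with 12 µM in batch 1, above the vehicle wells at 1.08 to 2.39 CPM. In batch 2 it was at 201 to 347 CPM with 300 µM and at 1.62 to 2.77 CPM with 12 µM, overlapping the vehicle wells at 0.832 to 2.32 CPM.

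The rise of the PPARα targets was also present within the plate. Against ketoconazole 0.6 µM, 16 of the 35 were called higher and 0 lower (6.54% and 5.42% of all genes), with a median L2FC of 0.37, and ketoconazole against vehicle called 0 of the 35 by edgeR in either direction (0.981% higher and 0.932% lower over all genes), where 4 were higher and 1 lower at an unadjusted p under 0.05. Cyp4a1 was at 1.10 to 1.78 CPM with ketoconazole in batch 1 and 0.972 to 1.87 CPM in batch 2, so that its L2FC against ketoconazole was 4.33 (adjusted p = 1.01e-13). Those of Cyp4a2 and Ehhadh were 4.02 and 2.80. In all, 1219 genes were called at 4 µM against ketoconazole (12.0%).

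**Figure D3:**
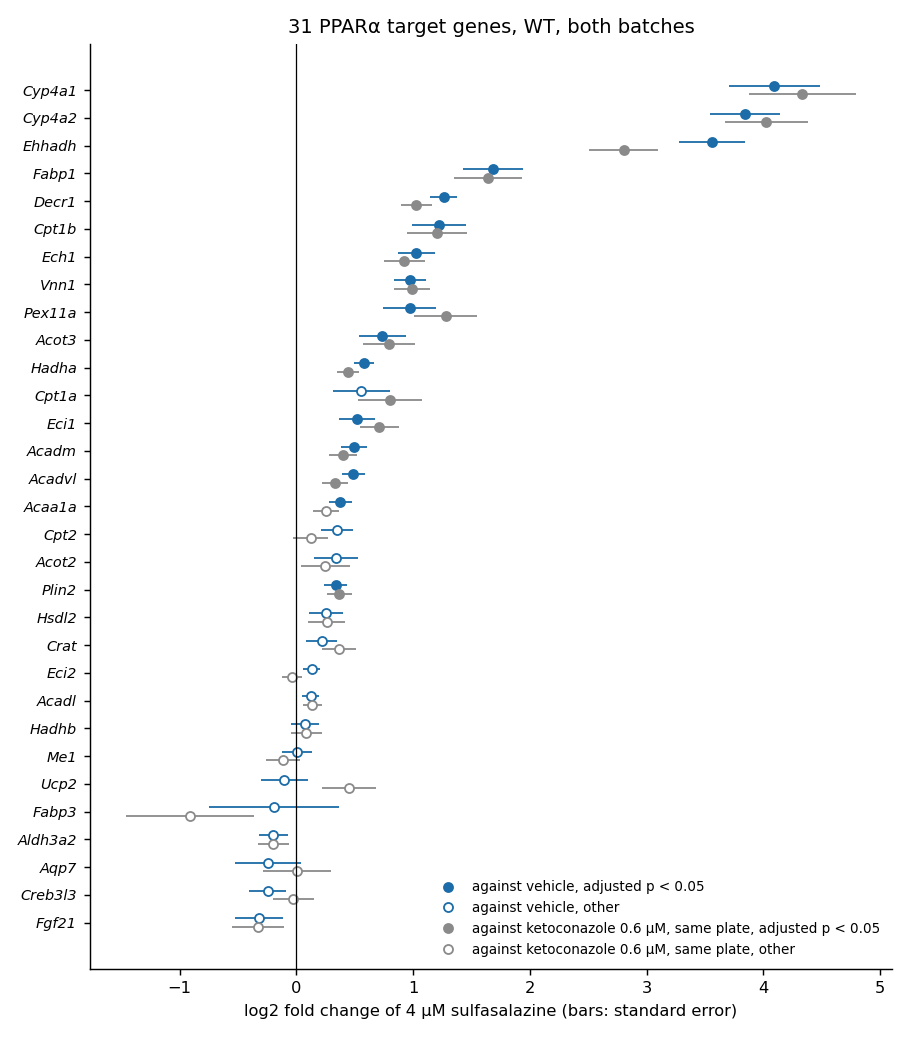
L2FC of sulfasalazine 4 µM (horizontal axis, bars are SE) for 31 of the 35 tested PPARα target genes (vertical axis), against vehicle (blue) and against ketoconazole 0.6 µM on the same plate (grey), from the WT fit of both batches. Filled points passed an adjusted p of 0.05, and Acot1 and Pdk4, with at most 3 counts in each vehicle well, are among those left out. Cyp4a1, Cyp4a2 and Ehhadh lie farthest to the right in both comparisons, and no point drawn to the left of 0 is filled.

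The 104 genes called in both batches were followed through the same comparisons, which share the 4 µM wells with the first. They were chosen on these wells, so the counts are a description. Of the 81 higher genes, 50 were called higher against ketoconazole (6.54% of all genes, median L2FC 0.49), and 61 were called higher still at 100 than at 4 µM (7.78% of all genes, median L2FC 0.94), with 0 the other way. Of the 23 lower genes, 11 were called lower against ketoconazole (5.42% of all genes, median L2FC -0.35), and 8 were called lower still at 100 than at 4 µM (5.43% of all genes, median L2FC -0.27), with 0 the other way.

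Of some higher genes the difference between the concentrations was not called. Sult2a2, a hydroxysteroid sulfotransferase, was at 22.5, 21.8 and 28.3 CPM at 4 µM against 6.25, 10.7 and 12.1 CPM with vehicle in batch 1 and at 11.1, 23.9 and 26.8 CPM against 5.21 to 7.67 CPM in batch 2. At 100 µM it was at 31.2 to 38.3 and 28.4 to 35.4 CPM (L2FC 1.56 at 4 µM against vehicle, adjusted p = 1.01e-05, and 0.61, SE 0.26, at 100 against 4 µM, adjusted p = 0.122), and every 100 µM well lay above every 4 µM well of its batch. Prdx1, a peroxiredoxin, Hspd1, the mitochondrial chaperonin, and Cfb, complement factor B, were also called higher at 4 µM and not called between the concentrations, with an L2FC against vehicle of 0.77, 0.69 and 1.00. Against ketoconazole Sult2a2 (L2FC 0.62, adjusted p = 0.125) and Prdx1 (0.38, adjusted p = 0.17) were not called. Hspd1 (0.585, adjusted p = 0.0168) and Cfb (0.605, adjusted p = 0.0273) were called there. Ketoconazole against vehicle gave Sult2a2 an L2FC of 0.94 (adjusted p = 0.0531).

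Dhrs7l1 and Ces1d were also among the 10 higher probes with the highest mean L2FC. Dhrs7l1, named for its likeness to a short-chain dehydrogenase, was at 374, 370.4 and 299 CPM against 114, 153 and 140.3 CPM in batch 1 and at 125, 200.0 and 218.5 CPM against 43.0 to 49.5 CPM in batch 2 (L2FC 1.74, SE 0.21, adjusted p = 1.45e-10). Ces1d, a carboxylesterase, was at 20.8, 27.1 and 38.3 CPM against 8.89, 10.0 and 9.21 CPM in batch 1 and at 26.2, 30.9 and 35.3 CPM against 9.15 to 15.7 CPM in batch 2 (L2FC 1.48, adjusted p = 1.4e-08). Ces1d differed less from ketoconazole, with an L2FC of 0.55 that was not called (adjusted p = 0.0797).

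Of 14 tested targets of CAR and PXR, the receptors that sense drugs, 3 were called higher and 0 lower (9.43% and 7.96% of all genes), with a median L2FC of 0.17. They were Cyp2b2 (L2FC 1.28, adjusted p = 0.00976), and the receptor genes Nr1i3 (0.91, adjusted p = 0.000202) and Nr1i2 (0.56, adjusted p = 0.00192). Against ketoconazole 1 of the 14 was called higher and 1 lower (6.54% and 5.42% of all genes). Nr1i3 kept its call there (L2FC 0.96, adjusted p = 0.00132), whereas Cyp2b2 (0.90, adjusted p = 0.0968) and Nr1i2 (0.39, adjusted p = 0.0613) did not, and in ST Nr1i2 was not called (0.30, adjusted p = 0.279). Cyp2b2 had 14.1, 10.5 and 11.1 CPM against 3.60, 5.72 and 2.05 CPM in batch 1, whereas its wells of batch 2 overlapped, at 3.16, 3.59 and 2.29 CPM against 0.825 to 3.33 CPM. At 100 µM, 10 of the 14 were called higher than at 4 µM (7.78% of all genes, median L2FC 0.90).

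Of 21 tested genes of cholesterol synthesis, 11 were called higher than with vehicle and 0 lower (9.43% and 7.96% of all genes), with a median L2FC of 0.51, among them Sqle, squalene epoxidase (L2FC 0.86, adjusted p = 0.000152), and Insig1, the sensor that holds back sterol synthesis (0.73, adjusted p = 6.55e-05). The count of higher genes was 7 in ST, 8 with only the vehicle wells of the same plate in batch 2, 8 without the replicate block, and 9 to 14 with 1 well left out at a time. In batch 1 alone edgeR called 0 of them, where 6 were higher and 1 lower at an unadjusted p under 0.05, and in batch 2 alone 16 were called higher (7.06% of all genes). Against ketoconazole 0 were called higher and 1 lower (6.54% and 5.42% of all genes, median L2FC -0.20), and ketoconazole itself called 13 higher and 0 lower against vehicle (0.981% and 0.932% of all genes, median L2FC 0.62). Ketoconazole is known to inhibit the sterol demethylase Cyp51. In medium without DMSO, 8 were called higher and 0 lower than with vehicle (7.78% and 5.17% of all genes).

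Sqle was at 139, 148 and 106 CPM at 4 µM against 83.3, 74.1 and 83.2 CPM with vehicle in batch 1 and at 67.5, 79.8 and 90.5 CPM against 32.2 to 51.7 CPM in batch 2. The ketoconazole wells, at 112 to 129 CPM and 71.4 to 83.1 CPM, lay in the range of the 4 µM wells (L2FC between them 0.05, adjusted p = 0.869).

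Of 16 tested genes of fatty acid synthesis 4 were called higher and 0 lower (9.43% and 7.96% of all genes), with a median L2FC of 0.25. The 4 were Scd, the stearoyl-CoA desaturase (L2FC 1.07, adjusted p = 1.06e-05), Thrsp (0.94, adjusted p = 7.12e-06), Srebf1, the transcription factor of lipid synthesis (0.48, adjusted p = 0.00737), and Acaca, acetyl-CoA carboxylase (0.47, adjusted p = 0.0109). In ST Acaca (0.20, adjusted p = 0.4765) and Srebf1 (0.42, adjusted p = 0.0848) were not called, whereas Thrsp was (0.72, adjusted p = 0.00765). Scd was at 23.7, 31.8 and 34.4 CPM against 18.9, 21.4 and 10.9 CPM in batch 1 and at 29.0, 39.9 and 30.2 CPM against 9.13 to 20.4 CPM in batch 2. Against ketoconazole 0 of the 16 were called higher and 2 lower (6.54% and 5.42% of all genes), and in medium without DMSO 8 were called higher than with vehicle (7.78% of all genes).

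Among 16 tested genes of gluconeogenesis and glucose handling, 5 were called higher and 0 lower (9.43% and 7.96% of all genes, median L2FC 0.36), led by Pck1, the enzyme that commits to gluconeogenesis, with an L2FC of 1.05 (adjusted p = 0.00548), which in ST was 0.63 and not called (adjusted p = 0.474). The others were Pc (0.59), Fbp1 (0.46), Gys2 (0.43) and Foxo1 (0.40). Against ketoconazole Pck1 (L2FC 1.28, adjusted p = 0.00619) and Fbp1 (0.39, adjusted p = 0.0301) were called, and Pc (0.25, adjusted p = 0.358), Gys2 (0.05, adjusted p = 0.847) and Foxo1 (0.12, adjusted p = 0.563) were not. In ST Fbp1 had an L2FC of 0.12 and was not called (adjusted p = 0.827). Of 27 tested genes of amino acid breakdown and the urea cycle, 4 were called higher and 2 lower (9.43% and 7.96% of all genes, median L2FC 0.05), whereas against ketoconazole 1 was called higher and 5 lower (6.54% and 5.42% of all genes, median L2FC -0.08). Oat, ornithine aminotransferase, rose with an L2FC of 0.93 (adjusted p = 0.000533) and Ass1, argininosuccinate synthase, fell with -0.78 (adjusted p = 1.13e-06). Against ketoconazole Oat was not called (L2FC 0.53, adjusted p = 0.0852) and Ass1 was called lower (-1.06, adjusted p = 6.45e-10). The gene called higher there was Gpt2 (0.31, adjusted p = 0.0266).

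**Figure D4:**
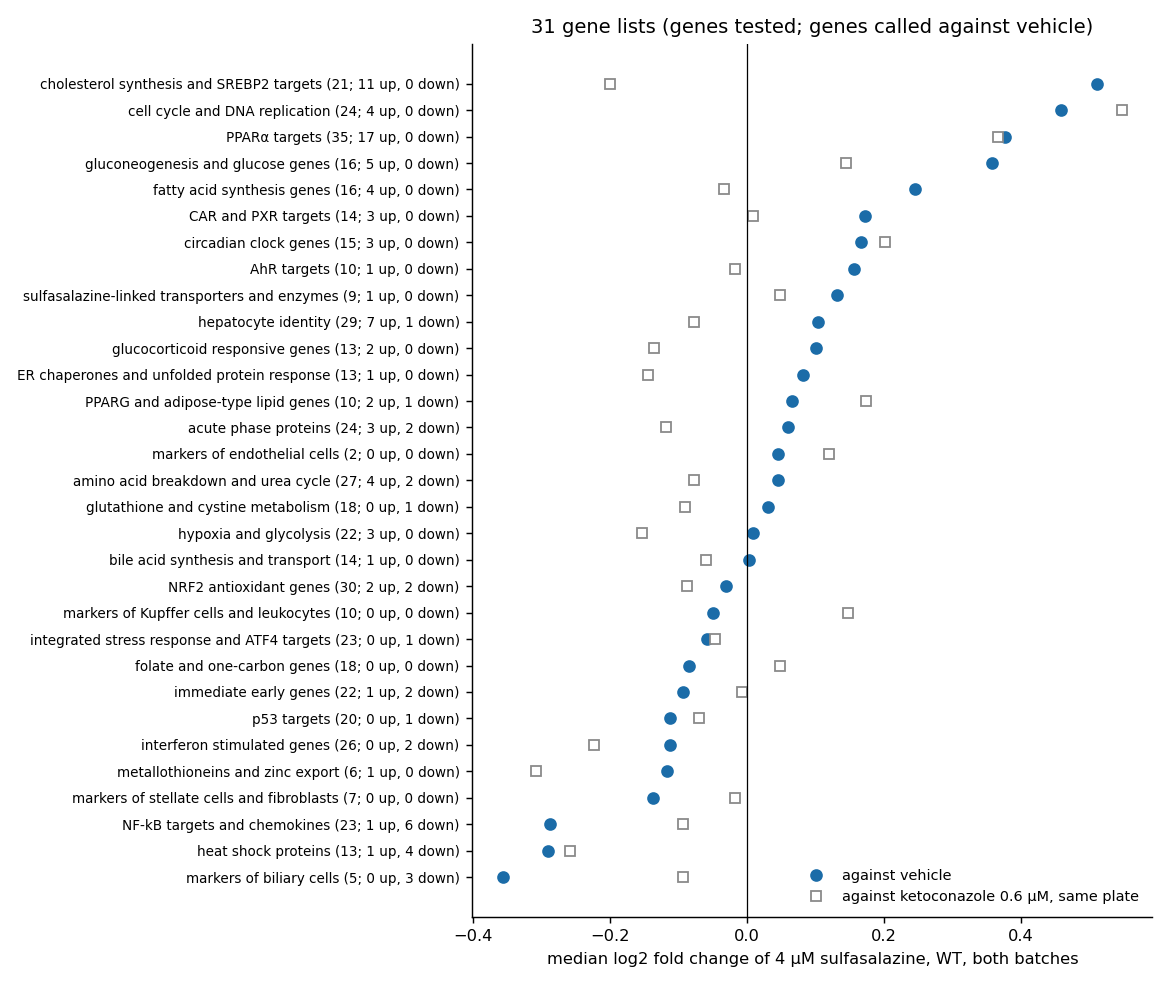
Median L2FC of sulfasalazine 4 µM over the tested genes of each of 31 lists (vertical axis, with the number tested and the numbers called against vehicle), against vehicle (filled circles) and against ketoconazole 0.6 µM on the same plate (open squares), from the WT fit of both batches (horizontal axis). The cholesterol list lies at 0.51 against vehicle and at -0.20 against ketoconazole, whereas the PPARα targets lie at 0.38 and 0.37.

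The targets of NF-κB were of interest because sulfasalazine is known to act on this pathway. Of 23 tested targets and chemokines, 6 were called lower and 1 higher (7.96% and 9.43% of all genes, median L2FC -0.29). The lower ones were Nfkbie, an inhibitor of NF-κB (L2FC -0.86, adjusted p = 0.000251), the chemokine Cxcl2 (-0.58), the cytokine Lif (-0.56), Tnfaip2 (-0.51), the adhesion molecule Icam1 (-0.30) and Nfkb1, a subunit of the factor (-0.29). Zfp36, which destabilises cytokine transcripts, was higher (0.57, adjusted p = 0.036). The call of Cxcl2 was lost in 6 of the 15 fits without 1 well and that of Zfp36 in 9. In ST the L2FC of Nfkbie was -0.45 and not called (adjusted p = 0.0674), and of 16 listed targets tested there 2 were called lower, Cxcl1 (-0.84, adjusted p = 0.0345), which was under the filter in WT, and Cxcl2 (-0.64, adjusted p = 0.0323), beside 3.07% of all genes in ST. In batch 1 alone edgeR called 0 of the 23, where 5 were lower at an unadjusted p under 0.05, against ketoconazole 0 were higher and 1 lower (6.54% and 5.42% of all genes), and in medium without DMSO 13 were called lower than with vehicle (5.17% of all genes). Over the alternative analyses of WT the lower calls of the 23 ran from 3 to 7, with 3 when only the vehicle wells of sulfasalazine's plate were used in batch 2 and 4 without the replicate block. In ST 1 of the 23, Cxcl2, was called lower. With wells left out, the lower calls numbered 3 without the second 4 µM well of batch 1, and 4 without the second 4 µM well or the sixth vehicle well of batch 2. Nfkbia, the best known inhibitor and target of the pathway, was not called (L2FC -0.34, adjusted p = 0.15).

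Of 13 tested heat shock genes 4 were called lower and 1, Hspd1, higher (7.96% and 9.43% of all genes). In ST the L2FC of Hspd1 was 0.22 and not called (adjusted p = 0.352). The lower ones were Cryab (L2FC -0.55), Hspa4 (-0.40), Hsf1 (-0.36) and Bag3 (-0.28). In batch 1 alone edgeR called 0 of the 13, where 3 were lower and 1 higher at an unadjusted p under 0.05. Against ketoconazole 2 were called lower and 1 higher (5.42% and 6.54% of all genes). Hsf1 (L2FC -0.14, adjusted p = 0.432) and Hspa4 (-0.26, adjusted p = 0.0674) were not called there. In ST 1 of 9 was called lower (3.07% of all ST genes), whereas Cryab (-0.44, adjusted p = 0.159) and Bag3 (-0.36, adjusted p = 0.115) were not. Of 26 interferon stimulated genes 2 were lower, the subunits Psmb10 (-0.78) and Psmb8 (-0.42) of the immunoproteasome, and 0 higher. Against ketoconazole neither Psmb10 (-0.48, adjusted p = 0.0954) nor Psmb8 (-0.23, adjusted p = 0.244) was called. In ST Psmb8 was called lower (-0.36, adjusted p = 0.0227) and Psmb10 was not called (-0.28, adjusted p = 0.272). Of 22 immediate early genes 2 were lower, Jund (-0.59) and Egr2 (-0.54), and 1 higher, Zfp36. The shares of the interferon and immediate early lists were near those of all genes or below them.

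In lists tied to oxidative and other stress the shares called were near those of all genes, 9.43% higher and 7.96% lower, or below them. Of 30 tested targets of NRF2, the sensor of oxidative stress, 2 were higher, Prdx1 (L2FC 0.77, in ST 0.34 and not called) and Tkt (0.20), and 2 lower, the glutathione peroxidase Gpx2 (-0.87) and Txn1 (-0.55). In ST Gpx2 had an L2FC of -0.35 and was not called (adjusted p = 0.346). Against ketoconazole edgeR called 0 of the 30, where 1 was higher and 2 lower at an unadjusted p under 0.05. In the integrated stress response 1 of 23 genes was lower, Nupr1l1 (-0.53), and among 20 targets of p53 1 was lower, Gadd45a, and 0 higher in either list. Among 13 genes of the unfolded protein response 1 was higher, the chaperone partner Dnajc3 (0.44). In 18 genes of glutathione and cystine metabolism 1 was lower, the synthetase Gss (-0.48), and in 18 genes of folate and one-carbon metabolism edgeR called 0, where 3 were higher and 3 lower at an unadjusted p under 0.05.

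Genes of the hepatocyte's own programme are set against 9.43% higher and 7.96% lower over all genes. Of 29 tested genes of hepatocyte identity 7 were higher and 1 lower (median L2FC 0.10), led by Cyp2c13 (1.26, adjusted p = 0.00474), Apoa2 (0.66) and Cyp2d1 (0.66), of which Cyp2d1 had an L2FC of 0.009 in ST (adjusted p = 0.985). Of 24 acute phase proteins 3 were higher, Cfb (1.00), Orm1 (0.59) and Tf (0.36), and 2 lower, Apcs (-0.52) and Itih3 (-0.36). Of 14 genes of bile acid synthesis and transport 1 was higher, the reductase Akr1d1 (1.16, adjusted p = 0.000142). In the hypoxia list 3 of 22 were higher, with Vegfa (0.89), P4ha2 (0.37) and Pdk1 (0.36), and in the clock list 3 of 15, with Per3 (0.83), Rora (0.82) and Hlf (0.73). Against ketoconazole P4ha2 (L2FC 0.09), Pdk1 (-0.04), Orm1 (-0.02) and Apoa2 (-0.16) were not called, with adjusted p of 0.62, 0.862, 0.957 and 0.643, while Vegfa was (0.78, adjusted p = 0.00737). In ST neither Vegfa (0.48, adjusted p = 0.115) nor P4ha2 (0.05, adjusted p = 0.882) was called.

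The remaining lists gave 4 calls or fewer, beside 9.43% higher and 7.96% lower over all genes. Of 13 glucocorticoid responsive genes 2 were higher, Pck1 and Cebpd (L2FC 0.56), of 6 metallothioneins and zinc genes 1, the exporter Slc30a10 (0.48), of 10 targets of the aryl hydrocarbon receptor 1, Tiparp (0.77, adjusted p = 0.03), and of 10 adipose-type lipid genes 2 were higher, Pck1 and Plin2, and 1 lower, Cidec (-0.35). Tiparp was not called against ketoconazole (L2FC 0.19, adjusted p = 0.6675) or in ST (0.30, adjusted p = 0.5595). Nor was Cebpd (0.15, adjusted p = 0.658, and in ST 0.24, adjusted p = 0.513). Of 24 genes of the cell cycle 4 were higher and 0 lower, the kinases Aurka (0.88) and Aurkb (0.78), the cyclin Ccna2 (0.77) and the marker Mki67 (0.75), with 13 higher in batch 2 alone (7.06% of all genes). Aurkb had an L2FC of -0.08 in batch 1 and 1.44 in batch 2. Against ketoconazole 8 of the 24 were called higher and 0 lower (6.54% and 5.42% of all genes), whereas in ST edgeR called 0 of 23, where 9 were higher at an unadjusted p under 0.05. The call was lost in 11 of the 15 fits without 1 well for Ccna2, in 7 for Cebpd and in 6 for Tiparp. In batch 1 alone edgeR called 0 of the 24, where 3 were lower at an unadjusted p under 0.05.

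The genes that were lower in both batches were led by Cdkn2b, an inhibitor of cyclin-dependent kinases. It had 3.11, 3.90 and 3.78 CPM against 6.25, 8.39 and 6.31 CPM with vehicle in batch 1 and 2.90, 1.20 and 2.75 CPM against 3.99 to 8.04 CPM (median 5.84) in batch 2. The wells did not overlap (L2FC -1.09, SE 0.22, adjusted p = 0.000245), and the gene was also lower than with ketoconazole (L2FC -0.81, adjusted p = 0.0219).

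Thbs1, a matrix glycoprotein, was at 164, 186 and 186 CPM against 260.2, 262 and 286 CPM in batch 1 and at 97.7, 89.0 and 109 CPM against 151 to 231 CPM (median 191) in batch 2. It fell with an L2FC of -0.83 (adjusted p = 0.00155), but the difference from ketoconazole was not called (-0.34, adjusted p = 0.264). Fibronectin, Fn1, another matrix protein, had an L2FC of -0.64, and the adhesion proteins Actn1, Zyx and Agrn had -0.63, -0.57 and -0.56.

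Gadd45a, a gene of growth arrest, was at 161, 154 and 178 CPM against 257, 265 and 210.3 CPM in batch 1 and at 159, 119 and 131 CPM against 216.5 to 295 CPM (median 228) in batch 2. Its groups were apart in both rats (L2FC -0.72, SE 0.14, adjusted p = 4.9e-05) and its difference between 4 and 100 µM was not called (L2FC -0.03, adjusted p = 0.93). Runx1, a transcription factor, had 16.5, 16.6 and 16.2 CPM against 25.4, 27.9 and 21.8 CPM in batch 1 and 11.1, 9.11 and 11.5 CPM against 15.6 to 20.1 CPM in batch 2 (L2FC -0.70, adjusted p = 0.000338). Runx1 was lower still at 100 µM (L2FC against 4 µM -0.61, adjusted p = 0.00647), and was not called at 4 µM against ketoconazole (L2FC -0.35, adjusted p = 0.12).

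The other lower genes named by their mean L2FC were Pea15, which binds the kinase ERK (L2FC -0.75), Vil1, the actin binding protein of microvilli (-0.70), Phc2, a Polycomb subunit (-0.69), Tsc22d1 (-0.63), Bzw2 (-0.60) and Noct, a clock-controlled phosphatase (-0.55). Pea15 was also lower than with ketoconazole (L2FC -0.53, adjusted p = 0.00595), whereas Vil1 (-0.27, adjusted p = 0.223), Tsc22d1 (-0.28, adjusted p = 0.195) and Noct (-0.14, adjusted p = 0.503) were not called there.

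**Figure D5:**
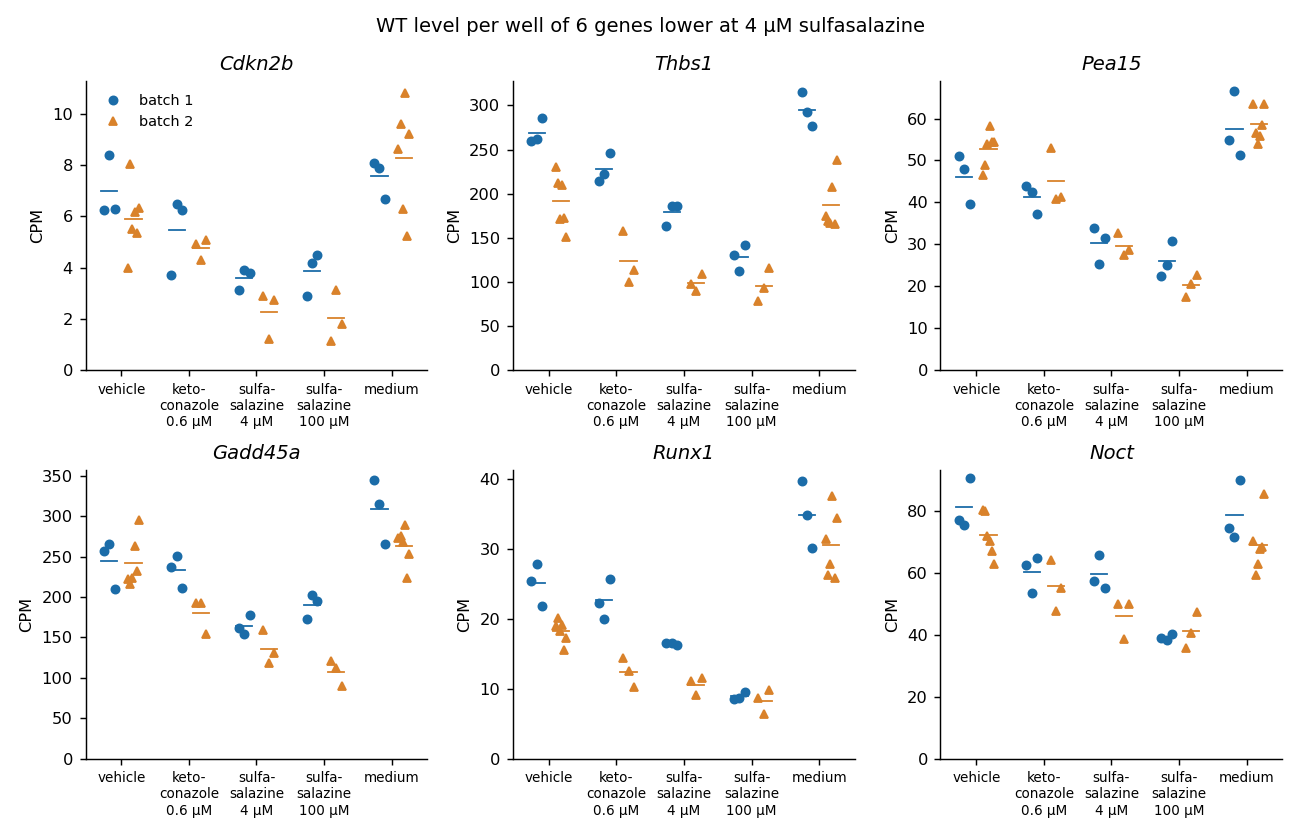
WT level in CPM (vertical axes, from 0) of Cdkn2b, Thbs1, Pea15, Gadd45a, Runx1 and Noct in every well of 5 groups (horizontal axes), each point a well, with circles for batch 1, triangles for batch 2 and a bar at the mean. In every panel the 4 µM wells lie below all vehicle wells of their batch.

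Genes linked to sulfasalazine by its known transport, breakdown and targets were read whatever their values. Slc7a11, the cystine transporter it inhibits, was under the filter on low counts. Abcg2, which exports sulfasalazine, had an L2FC of 0.13 (adjusted p = 0.614), Tpmt, a methyltransferase that its breakdown product inhibits, one of -0.27 (adjusted p = 0.213), and Nat2, which acetylates sulfapyridine, one of 0.33 (adjusted p = 0.3701). Of the 9 genes of this list that were tested 1 was called, Acat1, a mitochondrial thiolase, which was higher (L2FC 1.09, adjusted p = 1.41e-05), a share of 11.1% beside 9.43% higher over all genes. Cyp1a1, the main target of the aryl hydrocarbon receptor, was not called (L2FC 0.31, adjusted p = 0.291), and Cyp2b1 had 3 WT counts or fewer in each vehicle well, whereas ST called it higher (L2FC 1.26, adjusted p = 0.00214).

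The ST assay measured the same lysates with other libraries, so it checks the measurement and not the treatment. In the ST fit of both batches 143 of 1760 genes were called (8.12%), 89 higher and 54 lower. Of the 81 genes higher in both WT batches 43 were tested in ST, of which 42 had the same sign and 28 were called higher (5.06% of all ST genes), with 0 called the other way. Of the 23 lower genes 7 were tested, all 7 had the same sign and 6 were called lower (3.07% of all ST genes). Cyp4a1, Cyp4a2 and Ehhadh had ST L2FC of 4.20, 3.49 and 3.20.

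The 2 rats were compared by the interaction of batch and treatment, which called 4 of 10191 genes (0.0393%). For Sult1e1, the estrogen sulfotransferase, the L2FC was 2.97 in batch 1 and 0.25 in batch 2. For Mcm5, a subunit of the replication helicase, it was -0.64 and 1.40, and for Cp, ceruloplasmin, -0.29 and 0.69. Cyp4a1, Cyp4a2 and Ehhadh, whose L2FC was higher in batch 1, were not among the 4.

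Markers of other liver cells were read beside these results. Of 12 listed markers of biliary cells 5 were tested, of which 3 were called lower and 0 higher (7.96% and 9.43% of all genes), among them Epcam (L2FC -0.37) and Onecut1 (-0.36), while the defining markers Krt7 and Muc1 were at 0 in all wells. Spp1, osteopontin, was not called (L2FC 0.08, adjusted p = 0.907). The call of Epcam was lost in 12 of the 15 fits without 1 well, and against ketoconazole on the same plate edgeR called 0 of the 5 (median L2FC -0.09), where 1 was lower at an unadjusted p under 0.05. The summed level of the biliary markers was 143.5 to 163 CPM at 4 µM against 173 to 187 CPM in batch 1 and 170.3 to 180.5 CPM against 212 to 239 CPM in batch 2. The markers of Kupffer cells and leukocytes, of endothelial cells and of stellate cells gave 0 calls by edgeR of 10, 2 and 7 tested, where 0, 0 and 2 had an unadjusted p under 0.05. The part of the biliary markers in the lower genes was not tested.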

How the data were processed

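Hepatocytes of 1 rat per batch were treated for 24 h, and each lysate was run by the WT and ST TempO-Seq assays. According to the submitters' processing notes the reads were aligned with STAR 2.5.3a, and the genome build named is rn6. The authors deposited a table per assay of read counts per probe and well, without normalization. Probe sequences were not used here. Wells were assigned to groups by their labels.

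In R 4.3.3, edgeR 4.0.16 was run with TMM normalization on probes or genes whose mean over all wells of an assay was 10 counts or more, with every treatment as a group. Batches were fitted singly by probe, and together by gene, the counts of probes with 1 symbol being added and batch taken as a term. This term is the replicate block, since the wells of a batch share a rat. Calls had a Benjamini-Hochberg adjusted p under 0.05. CPM used TMM library sizes.

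The named genes were the 10 highest and 10 lowest probes by mean L2FC among those called in both batches, up to 2 genes per list with the largest L2FC, and 7 genes linked to the drug. Members and lists were chosen with earlier results of these data known, and other names after their values were seen. The alternatives were RLE size factors, DESeq2 1.42.0, an L2FC of 1 or more in size, no filter, only the compared wells, only vehicle wells of the same plate, no block, and each well left out in turn. The counts of 3 lists under these settings were added after seeing the data. The code was tested on simulated counts. Counts of reads are not counts of molecules, and depth limits which low genes could be tested. Promoters came from RefSeq. Some genes of these lists are not reported here.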

Additional observations from a re-analysis of the deposited data

Results flagged for a closer look

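The effect of 4 µM sulfasalazine differed between the hepatocytes of the 2 rats in 4 genes, by edgeR's test of the interaction of batch and treatment. Sult1e1 was called higher in batch 1 (L2FC 2.97) and was not called in batch 2 (0.25, adjusted p = 0.556), a difference of -2.72 (adjusted p = 0.000317). The L2FC in batch 2 minus that in batch 1 was 2.04 for Mcm5 (adjusted p = 0.0395) and 0.97 for Cp (adjusted p = 0.0137). The genes were picked by the test itself, and 480 genes had an unadjusted p under 0.05. In both batches the wells of each group came from 1 rat, and plate 5 of batch 1 held no vehicle wells, so rat, batch and plate cannot be told apart.

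Among the 6 vehicle wells of batch 2, Slc7a11 had a well at 1.14 CPM that stood away from the other wells, at 0.688 to 0.834 CPM, by Dixon's test. Of 67 genes tested in this way 1 was marked, where chance marks about 1 in 20. Slc7a11 was under the filter on low counts and was in no test.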

How the results depend on the processing

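The calls kept their directions under most settings, and their numbers moved with the filter and with single wells. With DESeq2 or RLE size factors each count stayed within 1.5 times its value. Without the filter, 99 probes were called in batch 1, 793 in batch 2 and 58 in both, and 1069 genes in both batches together and 696 against ketoconazole. With an absolute L2FC of at least 1, 45 probes were called in batch 1, 178 in batch 2 and 18 in both, and 91 genes in both together. Fits of only the compared wells called 76 probes in batch 1 and 63 in both. With vehicle wells of the same plate, 1998 were called in batch 2. Without the replicate block, 1203 WT genes were called in both batches together and 85 ST genes. Of the named genes also tested in ST, 25 kept their direction and side of the threshold, 17 lost their call, among them Nfkbie, Pck1, Prdx1 and Hspd1, Cyp2b1 gained one, and Nat2 changed sign (L2FC -0.055, adjusted p = 0.93). Without the replicate block 13 named genes lost their call, Thbs1 and Cyp2c13 among them.

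With each well left out in turn, the counts ran from 72 to 217 probes in batch 1, from 355 to 1914 in batch 2 and from 51 to 133 in both. The genes ran from 780 to 2134 in both batches together, from 289 to 1721 against ketoconazole, from 1006 to 1486 at 100 against 4 µM, from 88 to 148 in ST and from 1 to 7 for the interaction. Batch 1 gave 93 probes without vehicle well 1, 72 without vehicle well 2, and 113 and 106 without 4 µM wells 1 and 2. Batch 2 gave 1914, 355 and 403 without 4 µM wells 1, 2 and 3 and 708 without vehicle well 6. Both batches together gave 997 without 4 µM well 2 of batch 1, 780 and 884 without 4 µM wells 2 and 3 of batch 2, and 1075 without vehicle well 6 of batch 2. The probes called in both batches numbered 54 and 51 without vehicle wells 1 and 2 of batch 1, 68 and 60 without 4 µM wells 1 and 2 of batch 1, and 65 and 71 without 4 µM wells 2 and 3 of batch 2. Against ketoconazole, 289 remained without 4 µM well 2 of batch 1, 587 and 520 without 4 µM wells 2 and 3 of batch 2, 623 without ketoconazole well 2 of batch 1, and 749 and 647 without ketoconazole wells 1 and 2 of batch 2. ST gave 91 and 88 without 4 µM wells 2 and 3 of batch 2. The cause was not tested. Depth limits the calls of low genes such as Acot1 and Cyp2b1.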
